A study of Mus musculus with 7 samples.

Results

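The 10 genes described here build caveolae or reseal the torn muscle membrane: the caveolins Cav1, Cav2 and Cav3, the cavins Ptrf, Sdpr, Prkcdbp and Murc, and the repair genes Dysf, Anxa1 and Anxa2. They were chosen by symbol, and all 10 of 10 were found among the 26607 gene symbols of the expression files. Ptrf, Sdpr, Prkcdbp and Murc are older names of Cavin1, Cavin2, Cavin3 and Cavin4. The RNA came from C2C12 myotubes, which form when myoblasts of this established mouse line fuse in low serum. The control group, with no stimulation, had 3 libraries (replicates 1, 3 and 4). The group treated by electrical pulse stimulation (EPS), a culture model of contracting muscle, had 4 libraries (replicates 1 to 4). Pulses were given for 24 h from day 3 of differentiation, and a pause of 1 h came next. All libraries derive from a single cell line in culture, not from muscle tissue. Whether the libraries came from separate cultures is not stated in the sources used here, so the p-values measure only the spread between these libraries.

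Caveolae are small flask-shaped pits of the plasma membrane. Caveolins insert into the inner leaflet, cavins coat the pit from the cytosol, and the pits flatten when the membrane is stretched, which gives muscle cells spare membrane. CAV3 and the cavin encoded by Murc are the muscle forms, and CAV1, CAV2 and the other cavins are found in many cell types. When a fiber tears, calcium entry draws dysferlin vesicles and annexins to the wound, where they help to close it. Mutations of human CAV3 and DYSF cause muscular dystrophies.

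Each library held between 16616917 and 22120641 reads recovered from its CPM (the reads of a gene scaled to a common library total). The 10 genes had at least 305 reads in every library. Control replicate 4 stood apart, where 359 genes had 1 to 5 reads, while each of the other 6 had 2670 to 3181 such genes. The label of the cells was checked against marker lists. All 16 myotube markers were detected, with a summed level of 25384 to 28445 CPM in the control and 18577 to 28170 CPM in the EPS group. Endothelial markers, whose cells are also rich in caveolae, summed to 1.91 to 3.80 CPM over all libraries, with Tie1 and Emcn at 0, and adipocyte markers to 4.84 to 12.7 CPM, with Plin1, Cidec and Lep at 0.

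Among the 10 genes, Sdpr was the one whose control and EPS libraries did not overlap, with a mean change of -49.1% in CPM under EPS. The other 9 overlapped between the groups, with log2 fold changes (EPS minus control, on the log2(CPM + 1) scale) from -0.42 in Cav3 to 0.35 in Prkcdbp. Over all 19144 genes tested, 10.6% did not overlap in either direction and 2.85% were lower in every EPS library. Non-overlap in 1 of 10 genes is near the first share, and as a lower gene it stands against the second. A gene was called when its unadjusted limma P was under 0.01 and its change over 2-fold, and 0 of the 10 genes met both. The background was 1.41% of all genes tested, and 0.439% for lower calls alone. At an unadjusted limma P under 0.05 there was 1 of the 10, Sdpr, where 11.6% of all genes tested were, so this count is near the background. With the same thresholds the count tests of edgeR and DESeq2 on the recovered reads each called 1 of the 10, again Sdpr, and 3.29% and 3.06% of the genes they tested. With limma's p-values adjusted over all genes by the Benjamini-Hochberg method, 0 of the 10 were under 0.05, against 0.141% of all genes. The median log2 fold change of the 10 genes was 0.047, with 4 of them lower, beside 0.041 over all genes tested and 0.10 over genes with a mean of at least 1 CPM. Its sign depended on scaling and on single libraries. The median was -0.025 under quantile and -0.066 under median-of-ratios scaling, -0.051 in edgeR and -0.065 in DESeq2, with 6 or 7 of the 10 lower. Leaving out EPS replicate 3, control replicate 1, EPS replicate 4 or control replicate 4 gave -0.079, -0.063, -0.010 and -0.0023. Leaving out control replicate 3, EPS replicate 1 or EPS replicate 2 gave 0.031, 0.031 and 0.043.

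**Figure D1:**
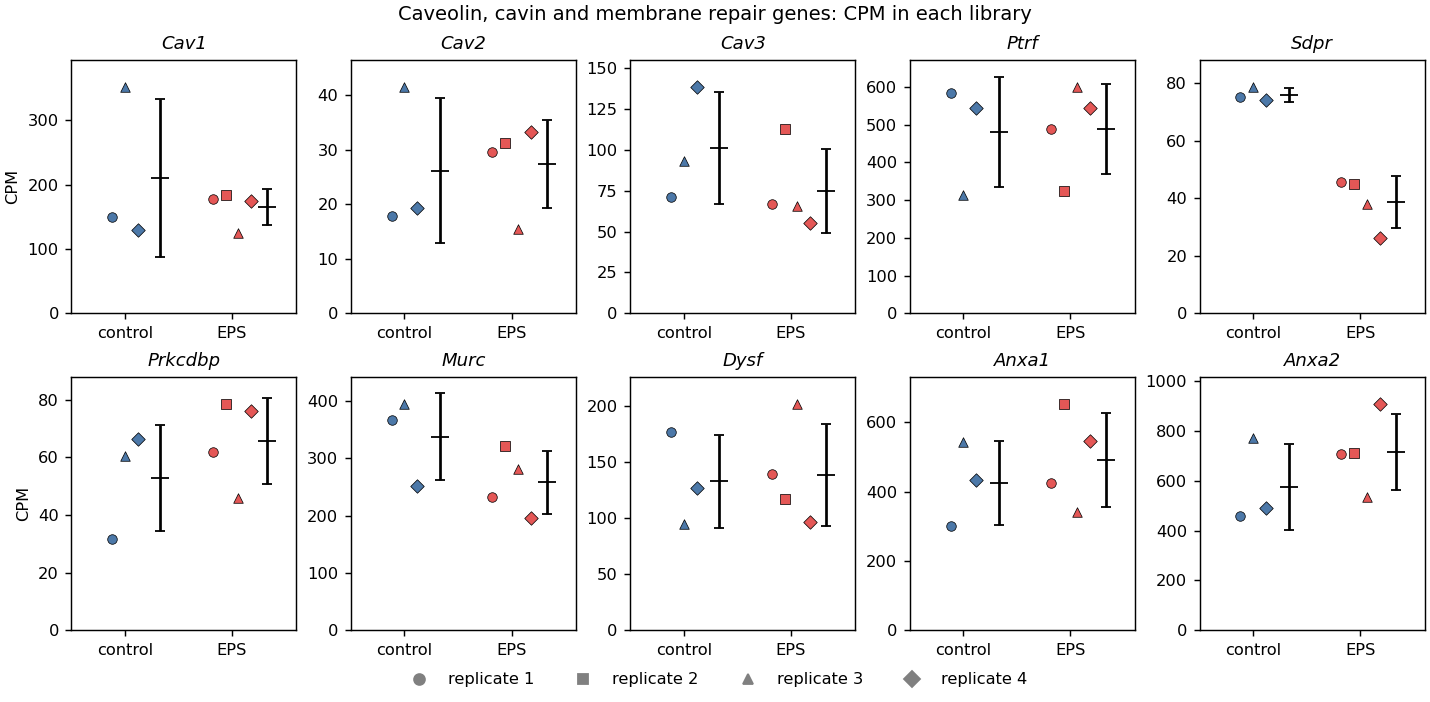
CPM of the 10 genes in each library, with control in blue, EPS in red, the marker shape giving the replicate number, and the bar giving the mean and SD of each group (n = 3 and n = 4). Sdpr is the panel in which all EPS points, at 26.3 to 45.7 CPM, lie below all control points, at 74.1 to 78.6 CPM.

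Cavin 2, encoded by Sdpr (ENSMUSG00000045954.7), binds phosphatidylserine and helps to bend the caveolar membrane. The gene lies on the plus strand of chromosome 1 of GRCm38, from 51289126 to 51302960. It was at 75.1, 78.6 and 74.1 CPM in control replicates 1, 3 and 4, and at 45.7, 44.8, 37.9 and 26.3 CPM in EPS replicates 1 to 4. The control libraries were tightly grouped and every EPS library was below them, with EPS replicate 4 the lowest. The control libraries varied by 3.10% (SD over mean), and counting error alone gives 2.47% to 2.79% at their read numbers. This comparison covers the sampling of reads only and does not show how well the control level would repeat. Among the other caveolin, cavin and repair genes chosen by symbol, the same measure ran from 22.4% in Murc to 58.3% in Cav1. Of genes described further on, Birc5 was at 6.26% and Capn3 at 28.5%. The means were 75.9 ± 2.35 CPM (SD, n = 3) and 38.7 ± 8.96 CPM (SD, n = 4). The log2 fold change was -0.99 (SE 0.20, 95% confidence interval -1.44 to -0.53, limma adjusted p = 0.101), so Sdpr passed the P-value threshold and lay just under 2-fold. The exact two-sided permutation test gave p = 0.0286, the smallest that the 35 splits of 3 and 4 libraries allow. Sdpr passed both thresholds without control replicate 4 (log2 fold change -1.004), EPS replicate 1 (-1.08) or EPS replicate 2 (-1.07), and its value without EPS replicate 4 was -0.82. An antisense gene, 9330175M20Rik, overlaps Sdpr and was listed at 0.814 CPM at most.

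The bases just upstream of Sdpr are shown because this was the cavin whose control and EPS libraries did not overlap. Beside them stand those of Trim72, a repair gene described further on that was also lower in every EPS library. Each run is the 250 bases before the RefSeq gene start on GRCm38.p6, read 5′ to 3′ on the plus strand, at chr1:51288876-51289125 for Sdpr and chr7:128004128-128004377 for Trim72. The Trim72 window lies inside the longer gene that GENCODE annotates. Capitals mark E-boxes (CANNTG), the motif that MyoD and myogenin bind.
Sdpr: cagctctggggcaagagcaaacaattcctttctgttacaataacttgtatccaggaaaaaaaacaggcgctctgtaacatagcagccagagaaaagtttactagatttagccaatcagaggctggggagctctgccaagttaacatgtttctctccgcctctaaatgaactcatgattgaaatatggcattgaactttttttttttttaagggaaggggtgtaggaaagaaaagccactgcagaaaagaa
Trim72: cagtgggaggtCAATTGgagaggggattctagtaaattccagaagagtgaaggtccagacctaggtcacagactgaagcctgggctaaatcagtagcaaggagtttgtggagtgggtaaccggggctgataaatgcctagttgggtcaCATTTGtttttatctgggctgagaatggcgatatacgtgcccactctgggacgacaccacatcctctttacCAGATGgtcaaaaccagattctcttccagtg
The E-box pattern CANNTG, which matches the same places on both strands, was found 3 times in the Trim72 window and 0 times in the Sdpr window. Of 32536 distinct RefSeq windows of this length, 66.2% hold at least 1 E-box and 31.7% hold 2 or more. RefSeq entries were matched for 9 of the 10 genes, and 4 of these, Cav1, Cav2, Cav3 and Murc, had an E-box in their window. None of the 9 had a match to the MEF2 or the CArG motif, which 0.513% and 1.48% of all windows hold. These matches describe letters in a short window and say nothing of binding in these cells.

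PTRF is the cavin that every caveola needs. Ptrf (ENSMUSG00000004044.9, chromosome 11, 100956733 to 100970887) was at 585, 314 and 543 CPM in control replicates 1, 3 and 4, and at 488, 324, 599 and 544 CPM in EPS replicates 1 to 4. Control replicate 3 and EPS replicate 2 were low and the other 5 libraries were close together. Its log2 fold change was 0.04 (95% confidence interval -0.63 to 0.71, limma adjusted p = 0.963), and its sign depended on how the libraries were scaled.

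Murc, the muscle cavin that joins caveolae with CAV3, was at 367, 395 and 252 CPM in control replicates 1, 3 and 4. In EPS replicates 1 to 4 it was at 233, 321, 282 and 196 CPM. Control replicate 4 lay among the EPS libraries, so the groups overlapped. The log2 fold change of Murc (ENSMUSG00000028348.7, chromosome 4, 48663514 to 48673502) was -0.39, with a 95% confidence interval from -0.91 to 0.14 (exact permutation test, p = 0.171). Without control replicate 4 it was -0.58, and without control replicate 3 it was -0.26. Prkcdbp, the third widely found cavin, was at 31.8, 60.4 and 66.4 CPM in the control and at 62.0, 78.6, 46.1 and 76.0 CPM in the EPS libraries. Control replicate 1 was the lowest of all 7. Its log2 fold change (ENSMUSG00000037060.3, chromosome 7, 105480083 to 105482300) was 0.35, with a 95% confidence interval from -0.30 to 0.99 (exact permutation test, p = 0.400), and 0.022 without control replicate 1.

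Cav1 and Cav2 encode the widely found caveolins, and CAV2 depends on CAV1 to reach the membrane. Their genes are neighbors on the plus strand of chromosome 6, Cav2 (ENSMUSG00000000058.6) from 17281185 to 17289115 and Cav1 (ENSMUSG00000007655.16) from 17306335 to 17341452, with 17219 bases between them. Cav1 was at 149.5, 351 and 129.6 CPM in control replicates 1, 3 and 4, and at 177, 185, 124 and 174 CPM in EPS replicates 1 to 4. Control replicate 3 was far above the others. The log2 fold change of Cav1 was -0.22 (95% confidence interval -0.96 to 0.53, exact permutation test, p = 0.743), and it changed sign, to 0.23, without control replicate 3. Cav2 was at 17.8, 41.4 and 19.2 CPM in the control and at 29.6, 31.2, 15.4 and 33.2 CPM in the EPS libraries. The same control library was the highest of Cav2 too. For Cav2 the log2 fold change was 0.11, with a 95% confidence interval from -0.69 to 0.91 (exact permutation test, p = 0.800), and its sign turned under quantile scaling, edgeR and DESeq2. Over the 7 libraries Cav1 and Cav2 had a Pearson correlation of 0.86 and a Spearman correlation of 0.86 on the log2 scale. Without control replicate 3 and EPS replicate 3, the pair farthest from the median of Cav1, the Pearson correlation was 0.87 over 5 libraries.

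Cav3, the muscle caveolin (ENSMUSG00000062694.7, chromosome 6, 112459505 to 112472872), was at 71.0, 93.0 and 138 CPM in control replicates 1, 3 and 4. In EPS replicates 1 to 4 it was at 66.7, 112.6, 65.5 and 55.0 CPM. EPS replicates 1, 3 and 4 lay below all control libraries and EPS replicate 2 did not. Its log2 fold change was -0.42 (95% confidence interval -1.08 to 0.23, limma adjusted p = 0.627, exact permutation test, p = 0.257), and -0.17 without control replicate 4, the library with the highest level. Cav3 did not follow Cav1, with a Pearson correlation of 0.069 and a Spearman correlation of 0.21 over the 7 libraries.

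The balance between the widely found Cav1 and the muscle caveolin Cav3 was read within each library, where scaling cancels. In control replicates 1, 3 and 4 the log2 ratio of Cav1 to Cav3 CPM was 1.07, 1.92 and -0.09. It was 1.41, 0.71, 0.93 and 1.66 in the EPS libraries, in order of replicate. The control libraries spanned more than the EPS libraries, and the groups overlapped. The log2 ratio of Ptrf to Murc was 0.67, -0.33 and 1.11 in the control and 1.07, 0.015, 1.09 and 1.47 in the EPS libraries, which also overlapped.

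Dysferlin, encoded by Dysf (ENSMUSG00000033788.15, chromosome 6, 84008590 to 84211060), is a calcium-binding ferlin of the sarcolemma. Dysf was at 177, 94.2 and 126 CPM in control replicates 1, 3 and 4, and at 139, 117, 201 and 95.9 CPM in EPS replicates 1 to 4. Both groups spanned almost the same range. Its log2 fold change was 0.05 (95% confidence interval -0.59 to 0.70, limma adjusted p = 0.944), and negative under quantile and median-of-ratios scaling, edgeR and DESeq2.

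Annexin A1 and annexin A2 bind membrane phospholipids when calcium rises, and annexin A2 works as a complex with S100A10. Anxa1 (ENSMUSG00000024659.15, chromosome 19, 20373428 to 20390944) was at 300.3, 543 and 433 CPM in control replicates 1, 3 and 4, and at 424, 653, 341 and 545 CPM in EPS replicates 1 to 4. Control replicate 1 was the lowest of the 7 libraries. EPS minus control was 0.21 on the log2 scale, with a 95% confidence interval from -0.45 to 0.86 (exact permutation test, p = 0.571), and -0.024 without control replicate 1. Anxa2 (ENSMUSG00000032231.14, chromosome 9, 69453620 to 69491795) was at 461, 773 and 489.9 CPM in the control and at 709, 712, 534 and 909.8 CPM in the EPS libraries. EPS replicate 4 was the highest and control replicate 3 the next. Anxa2 differed by 0.33 on the log2 scale, with a 95% confidence interval from -0.29 to 0.95 (exact permutation test, p = 0.257). That difference was 0.19 without control replicate 1 and 0.57 without control replicate 3. The intervals of Anxa1 and Anxa2 leave room for changes of either sign below 2-fold.

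**Figure D2:**
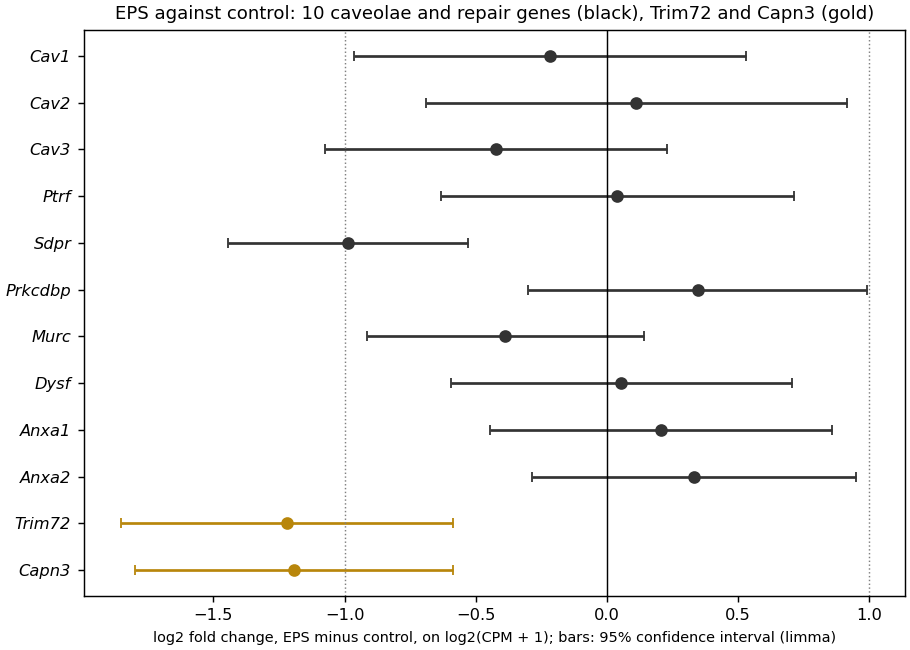
Log2 fold change of the 10 genes (black) and of Trim72 and Capn3 (gold), EPS minus control on log2(CPM + 1), with 95% confidence intervals from limma, and dotted lines at 2-fold in either direction. The intervals of Sdpr, Trim72 and Capn3 lie below 0, and those of the other 9 genes span it.

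The libraries differed from each other in several of the 10 genes at once, whatever their group. Relative to the control mean, control replicate 3 was at 0.89 for Cav1, 0.75 for Cav2 and 0.47 for Anxa2 on the log2 scale, and at -0.56 for Ptrf and -0.44 for Dysf. EPS replicate 3 ran the other way, at -0.60 for Cav1, -0.62 for Cav2, 0.37 for Ptrf and 0.65 for Dysf. Over the 7 libraries Cav2 and Dysf had a Pearson correlation of -0.89 (Spearman -0.96), and Cav1 and Ptrf one of -0.81 (Spearman -0.89). Without the pair of libraries farthest from the median of Cav2 or Cav1, the Pearson correlations were -0.66 and -0.61 over 5 libraries. These gene pairs are among the most negative within the 10 genes. Other pairs were near 0, such as Cav2 and Cav3 at 0.008 over the 7 libraries. All points of a correlation share their library totals, and no p-value is given.

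**Figure D3:**
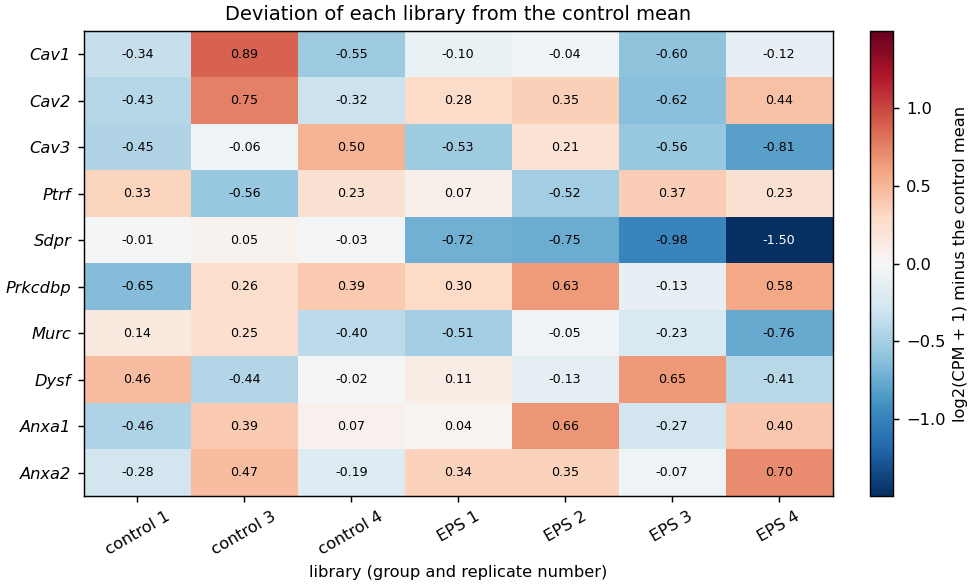
Deviation of log2(CPM + 1) from the control mean, for the 10 genes (rows) in each of the 7 libraries (columns), printed in each cell and colored from blue (lower) to red (higher). Sdpr is near 0 in the control libraries and between -0.72 and -1.50 in the EPS libraries, while Cav1 and Cav2 are highest in control replicate 3.

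Levels were compared between genes as CPM per kilobase of annotated exon, averaged over the control libraries. Murc was highest at 165 ± 36.9 CPM per kb (SD, n = 3), followed by Anxa2 at 154 ± 46.2, Anxa1 at 146 ± 41.7 and Ptrf at 134 ± 40.7. Cav3 came next at 87.1 ± 29.6, then Cav1 at 61.0 ± 35.6, Prkcdbp at 31.8 ± 11.1, Sdpr at 24.9 ± 0.770, Dysf at 15.9 ± 4.996 and Cav2 at 7.84 ± 3.97. Neighbors in this order had overlapping libraries, except that every control library was higher for Sdpr than any was for Dysf. In the EPS group the order of these means was Anxa2, Anxa1, Ptrf, Murc, Cav3, Cav1, Prkcdbp, Dysf, Sdpr and Cav2. Sdpr, at 12.7 ± 2.93 CPM per kb (SD, n = 4), was then below Dysf, at 16.6 ± 5.48, with overlapping libraries. The step from Prkcdbp to Dysf was the neighboring pair whose EPS libraries did not overlap.

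**Figure D4:**
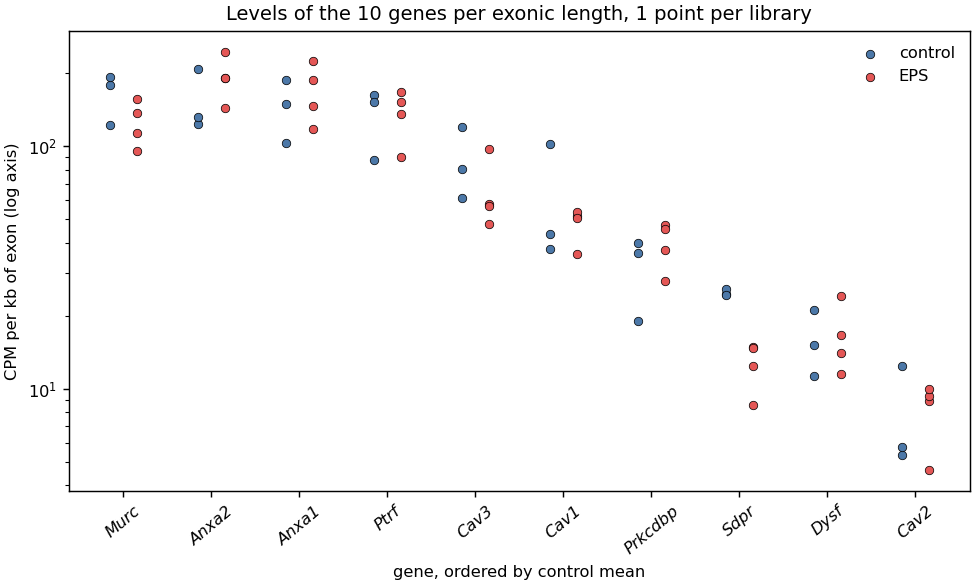
CPM per kilobase of exon (log axis) for the 10 genes, ordered by the control mean, with 1 point for each library (control blue, EPS red). Sdpr is the gene whose red points, at 8.60 to 14.9, lie below all its blue points, at 24.3 to 25.7.

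Other gene families around caveolae and membrane repair were followed as lists. Their counts stand beside 1.41% of all genes called by limma, 11.6% at a limma P under 0.05 and 10.6% without group overlap. A single gene in a list of 10 or 14 at one of the last 2 levels is near that background. A list of 10 genes held the EHD ATPases, the pacsins, the flotillins and filamin A. Whether each works at caveolae in these cells was not tested. Of these 10 genes, 0 were called by limma and 1 had a limma P under 0.05. That gene was Pacsin1, at 25.7, 20.8 and 17.3 CPM in the control and 10.4, 13.8, 12.3 and 6.80 CPM in the EPS libraries. The groups did not overlap, and the log2 fold change was -0.93 (SE 0.27, limma adjusted p = 0.222). edgeR and DESeq2 both called it. Pacsin3, the muscle pacsin, had a log2 fold change of -0.29 (limma adjusted p = 0.646). Ehd2, which sits at the neck of caveolae, had mean levels of 174 CPM in the control and 172 CPM in the EPS group.

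Of 11 tested ferlins, calpains and other dysferlin partners, 2 were called lower by limma, Trim72 and Capn3, and 0 were called higher, where 0.439% of all genes tested were called lower. By sign alone, 7 of the 11 were lower and 4 higher. The list's median log2 fold change was -0.13. Trim72 (ENSMUSG00000042828.12, chromosome 7, 128003949 to 128011033) encodes MG53, the muscle protein that gathers repair vesicles at a wound and binds dysferlin and CAV3. It was at 488, 361 and 633 CPM in control replicates 1, 3 and 4, and at 245, 199, 270.4 and 137 CPM in EPS replicates 1 to 4. All EPS libraries were below all control libraries. Trim72 had a log2 fold change of -1.22 (SE 0.28, limma adjusted p = 0.136, exact permutation test, p = 0.0286). edgeR gave Trim72 an adjusted p of 0.0123, and DESeq2 one of 8.09e-04. Its limma call was lost with replicate number as a block over all libraries (-1.20, limma adjusted p = 0.569). With the block over the 6 libraries whose number is in both groups, the call was kept (-1.20, limma adjusted p = 0.305).

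Capn3 (ENSMUSG00000079110.11, chromosome 2, 120456019 to 120504913) encodes calpain 3, a muscle protease found with dysferlin, whose loss causes a limb-girdle muscular dystrophy. It was at 43.4, 46.6 and 26.1 CPM in control replicates 1, 3 and 4. In EPS replicates 1 to 4 it was at 16.6, 19.2, 18.1 and 10.9 CPM. Control replicate 4 was the lowest control library and still lay above every EPS library. Capn3 had a log2 fold change of -1.19 (SE 0.27, limma adjusted p = 0.126), and the adjusted p was 0.00546 in edgeR and 2.14e-04 in DESeq2. The paralog of Dysf that is high in myoblasts, Myof, averaged 494 CPM in the control and 639 CPM under EPS, with a log2 fold change of 0.39 (limma adjusted p = 0.551). Within libraries, the log2 ratio of Myof to Dysf ran from 1.57 to 2.43 in the control and from 1.74 to 2.73 in the EPS group, and the groups overlapped.

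Of the 10 other annexins, 0 were called by limma and 0 had a limma P under 0.05, with a median log2 fold change of 0.003. Anxa8 was at 397, 484 and 297 CPM in the control and at 493, 636, 494 and 487 CPM in the EPS libraries. Every EPS library was above the controls, with a log2 fold change of 0.44 (limma adjusted p = 0.486). Anxa6, an annexin that caps wounds in muscle, had a log2 fold change of -0.30 (limma adjusted p = 0.639). Of 4 S100 partners of annexins, 0 were called by limma and 0 had a limma P under 0.05. All 4 had positive log2 fold changes, led by S100a11 at 0.60 and S100a6 at 0.56. Of all 19144 genes tested, 12123 were positive too. S100a11 moved to 0.92 without control replicate 3 and to 0.35 without control replicate 4. Of 14 genes of the ESCRT machinery and lysosomal exocytosis, which shed or patch wounded membrane, 0 were called and 1 had a limma P under 0.05. That was Chmp2a, at 62.1, 70.8 and 56.6 CPM in the control and 93.5, 96.7, 79.5 and 84.0 CPM in the EPS libraries, with a log2 fold change of 0.48 (limma adjusted p = 0.231). The groups did not overlap. Pdcd6, the calcium sensor ALG-2, had a log2 fold change of 0.60 (limma adjusted p = 0.504).

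**Figure D5:**
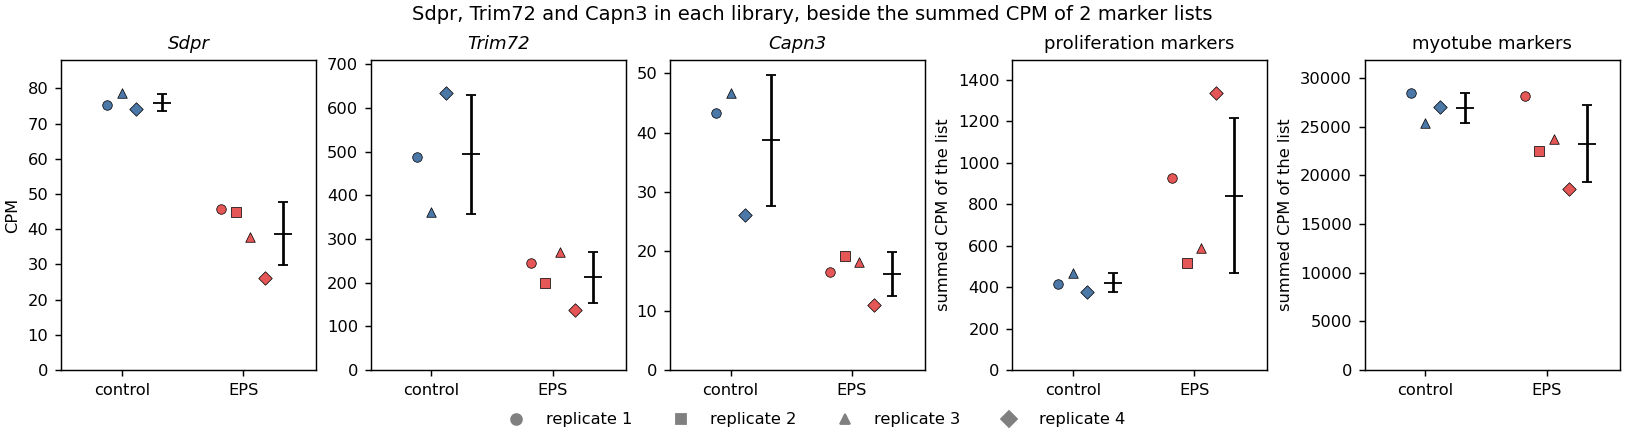
CPM of Sdpr, Trim72 and Capn3 in each library, and the summed CPM of the proliferation and the myotube marker lists (control blue, EPS red, shape giving the replicate number, bars giving mean and SD). EPS replicate 4 has the lowest Sdpr, Trim72 and Capn3, the highest proliferation sum, 1334 CPM, and the lowest myotube sum, 18577 CPM.

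Markers of cell state are given beside these genes. The 8 proliferation markers summed to 378 to 470.3 CPM in the control and to 516 to 1334 CPM in the EPS group. All 8 had positive log2 fold changes with a median of 0.92, though Pcna was at 0.011. Over all 19144 genes tested, 12123 were higher under EPS and 7021 lower. Birc5 was called, at 1.19 (limma adjusted p = 0.234). A limma P under 0.05 was reached by 6 of these 8 markers, and the marker counts at this level that follow stand beside 11.6% of all genes tested. The Birc5 call was lost without any one of control replicates 1, 3 and 4 (1.15, 1.24 and 1.19). It was also lost without EPS replicate 1 (1.17) or EPS replicate 4 (0.87). Of 16 myotube markers, 13 had negative log2 fold changes, the median was -0.25 and 0 were called by limma, while 1 had a limma P under 0.05. The lowest limma P-values were those of Actn2, at -0.99 (limma adjusted p = 0.177), and Myog, at -1.07 (limma adjusted p = 0.437), with 1794 CPM in control replicate 4 and 473 and 565 CPM in control replicates 1 and 3. Actn2 was lower in all EPS libraries than in any control, and it was called by edgeR (-1.14, adjusted p = 0.0202) and DESeq2 (-1.16, adjusted p = 0.00622). Myog was called by the same tools (-1.39, adjusted p = 0.0625, and -1.40, adjusted p = 0.0303), and its limma value was -0.47 without control replicate 4. The 8 detected markers of myoblasts and reserve cells summed to 676 to 876 CPM in the control and to 516 to 600.4 CPM in the EPS group. Vcam1 was called lower, at -1.21 (limma adjusted p = 0.0914). The Vcam1 call was lost with replicate number as a block over all libraries (-1.15, limma adjusted p = 0.541). With the block over 6 libraries it was kept (-1.15, limma adjusted p = 0.222). Of these 8 markers, 3 had a limma P under 0.05. The summed CPM of the 8 detected fibroblast markers overlapped between the groups, at 5947 to 9928 CPM and 5465 to 7445 CPM. Of these 8 markers, 0 were called by limma and 3 had a limma P under 0.05. Pdgfra was higher in every EPS library than in any control. Their lowest limma P-values were those of Pdgfra, with a log2 fold change of 0.70, and Lum, at -0.89. Of 8 stress or death genes, Hmox1 rose, at 2.71 (limma adjusted p = 0.0443), and 2 had a limma P under 0.05. By sign alone, 5 of these 8 were higher and 3 lower. EPS replicate 4, the lowest library for Sdpr, Trim72 and Capn3, stood apart in Atf3, Hspa1a and Hspa1b, though not in every gene of this list. It held 39.7 CPM of Atf3 against 2.74 to 3.65 CPM in the other EPS libraries, 31.9 CPM of Hspa1a against 4.75 to 8.28 CPM, and 115 CPM of Hspa1b against 27.1 to 49.4 CPM. Without EPS replicate 4 the log2 fold changes were -0.82 for Sdpr, -1.02 for Trim72 and -1.03 for Capn3, and the last 2 were still called. In bulk RNA, fewer cells of a kind and less RNA per cell cannot be told apart, and the part of these marker levels in the values of Sdpr, Trim72 and Capn3 was not tested.

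Patterns like those of Cav1 and Cav3 were looked up among 9255 other genes with a mean of at least 10 CPM, by Pearson correlation over the 7 libraries. For Cav1 the 3 nearest were Hif1a (0.98), Gorasp2 (0.96) and Gulp1 (0.96). Hif1a was at 191, 321 and 159 CPM in control replicates 1, 3 and 4 and at 216, 208, 157 and 190.3 CPM in EPS replicates 1 to 4, high in the same control library as Cav1. Without control replicate 3 and EPS replicate 3, the correlations were 0.91, 0.96 and 0.82 over 5 libraries. For Cav3 the nearest were Foxc1 (0.99), 2310047M10Rik (0.98) and Pdlim4 (0.98). Pdlim4 was at 119.6, 135 and 230.0 CPM in the control and 116, 177, 117 and 99.6 CPM in the EPS libraries, highest in control replicate 4 as Cav3 was. All points share their library totals, and these correlations are a description over 7 libraries.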

How the data were processed

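RNA-seq libraries of 3 control and 4 EPS-treated C2C12 samples were used, grouped by the treatment given in their labels. The authors mapped poly(A) reads to GRCm38 with STAR 2.5.4b and deposited CPM per gene symbol, not log-transformed. The read counter, its annotation, strand setting and handling of multi-mapping reads are not given in the sources used here. All values (100% in each library, tolerance 0.01 read) were whole multiples of 1 read, so reads were recovered.

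Log2(CPM + 1) was compared for 19144 genes, those not at 0 throughout, using limma 3.58.1 (empirical Bayes with trend) under R 4.3.3, with Benjamini-Hochberg adjustment over all genes. Single genes were also tested by an exact permutation test of the mean over 35 splits. edgeR 4.0.16 (quasi-likelihood, TMM) and DESeq2 1.42.0 on the recovered reads, a pseudocount of 0.1 or 0.5, only genes averaging 1 CPM or more, quantile and median-of-ratios scaling, robust priors, P under 0.001, the replicate block and leaving out each library were alternatives. The fits were tested on simulated data. The genes and lists were chosen with earlier results of these data known. Of each list, the called genes or the 2 with the lowest limma P are named, and Ehd2, Myof, Atf3, Hspa1a and Hspa1b were added after their values were seen. Endothelial and adipocyte lists are given by their sums. Positions and exonic lengths (merged exons) are from GENCODE M21, and promoter windows from RefSeq, GRCm38.p6.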

Additional observations from a re-analysis of the deposited data

Results flagged for a closer look

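Annexin A8 (Anxa8) stood out in EPS replicate 2, at 636 CPM, where the other EPS libraries were at 487 to 494 CPM. The gap to the next library was 0.954 of the group's whole range, above the 95% critical value for 4 samples. Of 31 genes looked at in this way, 1 was marked, and chance marks about 1 in 20. Without this library the log2 fold change of Anxa8 was 0.35, against 0.44 with it. It moved further without control replicate 4, to 0.26, and without control replicate 3, to 0.61.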

How the results depend on the processing

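Of the 10 genes, 0 were called on the reported scale. The count was 1 with a pseudocount of 0.1, quantile normalization, median-of-ratios scaling, edgeR, DESeq2 or the replicate block (also over 6 libraries, an alternative added after the data were seen), and between 0 and 1 when each library was left out. In each case the gene was Sdpr, whose log2 fold change stayed between -1.10 and -0.82 over all 17 alternatives, with adjusted p from 4.89e-04 to 0.51. Over all genes, 269 were called, against 601 with a pseudocount of 0.1, 629 in edgeR, 585 in DESeq2, 161 with the replicate block and 106 at P under 0.001. Higher calls made up 68.8% of the 269 and 51.6% to 54.2% under quantile or median-of-ratios scaling, edgeR and DESeq2. For genes averaging 1 CPM or more, these settings bring the median difference from 0.10 to between -0.015 and 0.0052. Several near-zero differences changed sign under these settings. Under quantile normalization Cav2, Ptrf and Dysf were at -0.012, -0.035 and -0.014. In edgeR they were at -0.033, -0.070 and -0.031, and in DESeq2 at -0.047, -0.083 and -0.042. Median-of-ratios scaling gave -0.074 for Ptrf and -0.058 for Dysf, while Cav2 stayed positive, at 0.003. With each library left out, the ranges that crossed 0 were -0.49 to 0.23 for Cav1, -0.10 to 0.49 for Cav2, -0.24 to 0.22 for Ptrf, -0.17 to 0.29 for Dysf and -0.024 to 0.40 for Anxa1. At P under 0.01, Capn3 was called under all 17 other fits and Trim72 under 16, the exception being the replicate block (-1.20, adjusted p = 0.57). Neither passed P under 0.001 (limma P of 0.00165 and 0.0019). Birc5 was lost in 8 and Vcam1 in 1, the replicate block (-1.15, limma adjusted p = 0.541). Whether equal replicate numbers mark paired libraries is not stated in the sources used here. Deviations of same-numbered libraries from their group means correlated at 0.25, -0.45 and 0.068 across genes for replicates 1, 3 and 4. Values of mixed sign from so few libraries cannot decide it.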
